A study of Mus musculus with 8 samples.

Results

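The ATF4 amino acid response genes are 45 mouse genes that include the transcription factor Atf4, 3 partner or related factors, and the transporters, biosynthetic enzymes, tRNA synthetases and stress effectors known as their targets. The members were chosen by name from textbook knowledge of this pathway, with their counts in these libraries and their difference between genotypes already known, so that both are given here as a description. All 45 were found among the 52636 genes of the count table. RNA was sequenced from mesenchymal stem/progenitor cells (MSPCs), the perisinusoidal stromal cells of bone marrow that produce CXCL12 and stem cell factor, in 8 libraries, each from a single mouse. The 4 control (CTR) mice were Flk2-cre+ Cxcr4fl/+ and the 4 conditional knockout (cKO) mice were Flk2-cre+ Cxcr4fl/fl, so that both groups carried the cre and at least 1 floxed Cxcr4 allele. All were C57BL/6, and the labels give their age as 6 weeks, which is younger than the ages stated in the study's methods. Flk2-cre, which lies on the Y chromosome, deletes Cxcr4 in multipotent hematopoietic progenitors and their progeny, and not in the MSPCs sequenced here. The cells were sorted, with a repeat sort through the same gate, as CD45- Ter119- CD31- CD144- PDGFRα+ and GFP+, with GFP reporting Kitl. This gate implies that the mice also carried a Kitl-GFP allele, which the genotypes above do not name. The paper reports that KitlGFP/+ brought membrane-bound stem cell factor and hematopoietic stem cell numbers of cKO mice back to normal levels. The comparison asks whether the MSPC transcriptome differs when hematopoietic progenitors lack CXCR4.

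ATF4 is the main transcription factor of the integrated stress response. When a cell is short of amino acids, the kinase GCN2 phosphorylates the initiation factor eIF2, translation falls in general, and the Atf4 mRNA is translated more efficiently through its upstream open reading frames. ATF4 then binds, often as a heterodimer with a C/EBP factor, to composite response elements and raises genes for amino acid uptake, amino acid synthesis and tRNA charging. Since much of this control acts on translation, the Atf4 mRNA is not a measure of the ATF4 protein. Osteoblasts are known to depend on ATF4 for amino acid import and collagen synthesis.

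The binding element is shown first because it links genes of such different function. The core TGATGNAA, or TTNCATCA on the other strand, was searched in RefSeq promoter windows on GRCm38.p6 that run from 250 bases before to 50 bases after each annotated start. Windows were available for 37 of the 45 members, and 14 of these 37 (37.8%) held the core, against 1219 of 27025 genes (4.51%) in the whole table and 2.66% of the 9842 tested genes that have a window. The members were drawn from known ATF4 targets, so this share describes the list and is not independent evidence. The members with the core were Chac1, Trib3, Slc7a11, Yars, Asns, Gars, Nupr1, Aars, Slc1a4, Pycr1, Iars, Tars, Vldlr and Got1. Windows of 30 bases around 8 of these matches are given for members whose values are described individually below, with the 8 core bases in capitals and read along the gene's own strand.
Slc1a4 (chr11:20332699-20332728, minus strand): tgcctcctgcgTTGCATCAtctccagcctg
Asns (chr6:7693214-7693243, minus strand): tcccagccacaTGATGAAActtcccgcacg
Pycr1 (chr11:120643833-120643862, minus strand): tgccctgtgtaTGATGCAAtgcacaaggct
Nupr1 (chr7:126625562-126625591, minus strand): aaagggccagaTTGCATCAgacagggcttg
Slc7a11 (chr3:50443661-50443690, minus strand): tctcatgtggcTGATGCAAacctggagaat
Chac1 (chr2:119351038-119351067, plus strand): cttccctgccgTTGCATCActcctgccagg
Trib3 (chr2:152344028-152344057, minus strand): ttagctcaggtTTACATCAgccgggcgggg
Tars (chr15:11399655-11399684, minus strand): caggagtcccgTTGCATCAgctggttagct
The core began 4 bases before the annotated start of Slc1a4, 23 bases before that of Asns, 103 bases before that of Pycr1, 110 bases before that of Nupr1, 66 bases before that of Slc7a11, 193 bases before that of Chac1 and 15 bases before that of Tars. In Trib3 it began 14 bases after the annotated start. A second match lay 47 bases before the start of Slc7a11, in the opposite orientation, and Aars also held 2 matches. Letters alone do not show that a site is bound. Among these 14 genes were both members with steady, high counts, such as Nupr1, and members at or near 0, such as Chac1.

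Total counts lay between 31047344 and 38216877 per library, of which 83807 to 107528 fell on the members. The MSPC markers Lepr, Cxcl12 and Pdgfra had at least 117089, 1294897 and 17978 counts in every library. Summed hematopoietic markers ranged from 81.9 to 358 CPM (counts scaled to library size) in CTR and from 178 to 282 CPM in cKO, with Cd3e at 0. The highest sum was that of CTR 3, which alone had 2726 counts of Igkc and 2945 of Igha, and without it the CTR sums ranged from 81.9 to 225 CPM. Endothelial markers summed to between 5.06 and 14.2 CPM, with Tek at 0. Cxcr4 itself, deleted in other cells, was close to absent, with no more than 19 counts in any CTR library and no more than 12 in any cKO library. In bulk RNA, fewer cells expressing a gene and less RNA per cell cannot be told apart.

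Levels between genes were compared as CPM, scaled by the trimmed mean of M values (TMM), per kilobase of exon. Gene lengths are those of all annotated exons together, and the length of the longest coding transcript alone, an alternative added after seeing the data, is named where it changes an order. On the first scale 28 of the 45 members lay above the median of the 14598 genes with a count in every library, 4.57, and the members' own median was 7.92. The members spanned the whole range of expression, from Slc1a5 at 142 ± 16.8 (SD, n = 8) to 3 genes with no count in any library. The plot of levels by library shows that this spread lay between genes rather than between libraries for most members.

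**Figure D1:**
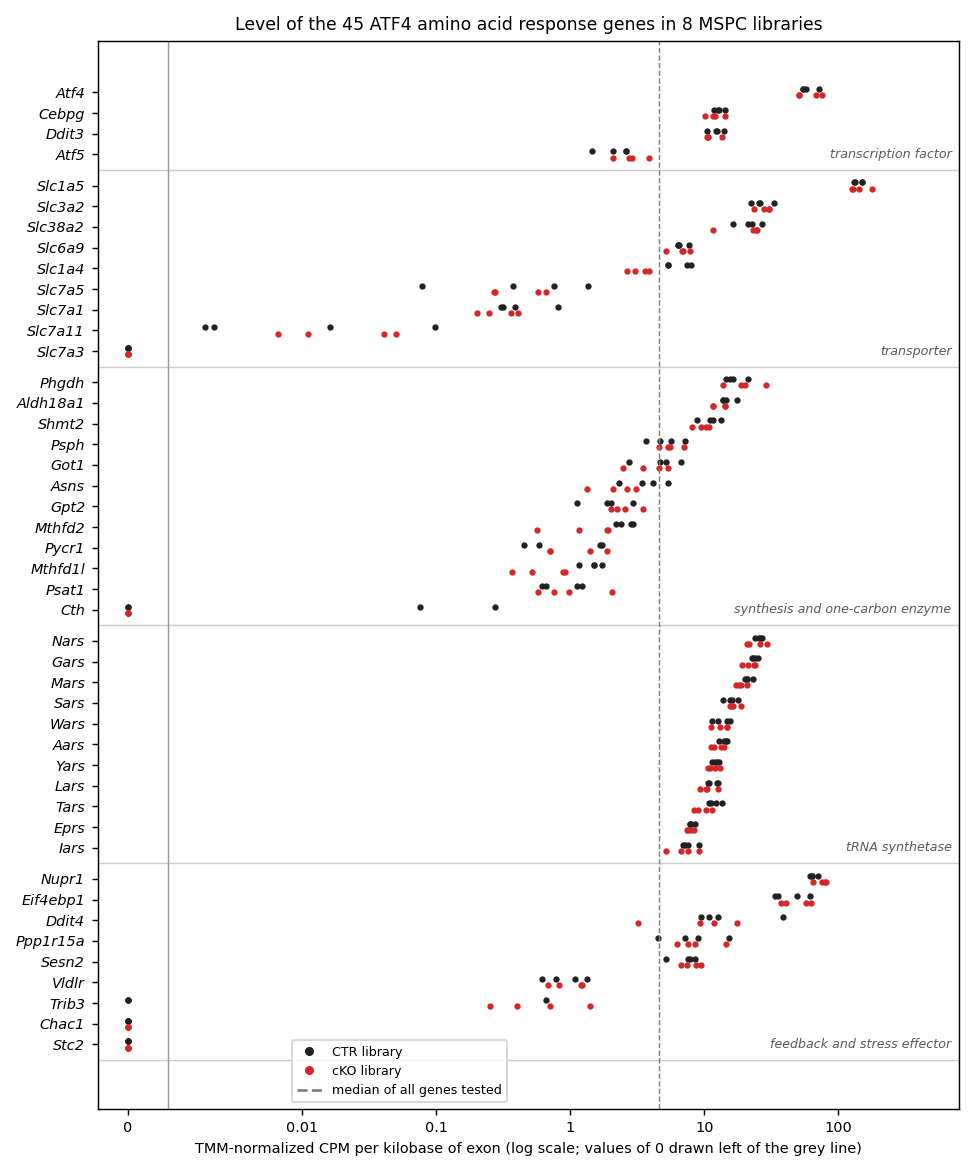
TMM-normalized CPM per kilobase of exon (log axis, with values of 0 drawn left of the solid grey line) for the 45 members, grouped by role, with 1 point per library (black, CTR; red, cKO). The 11 tRNA synthetases lie between 7.44 and 25.0 on average, all right of the dashed median of tested genes, while Slc7a3, Chac1 and Stc2 are at 0 in all 8 libraries.

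Of the transcription factors, Atf4 was among the most abundant mRNAs in MSPCs. It stood at 60.6 ± 9.85 CPM per kilobase (SD, n = 8), at or above 95.3% of tested genes. In TMM-normalized CPM, without length, Atf4 was at 169, 129, 137 and 129 in CTR 1 to 4 and at 180, 120, 119 and 160 in cKO 1 to 4. The ranges of the 2 genotypes overlapped. Cebpg, a C/EBP partner of ATF4, was at 80.6, 70.7, 66.5 and 72.9 CPM in CTR and 65.7, 57.2, 68.0 and 80.1 CPM in cKO. Ddit3, which encodes the stress factor CHOP, was at 21.0, 18.03, 21.2 and 23.9 CPM in CTR and 18.2, 18.1, 18.4 and 23.3 CPM in cKO. Its exons overlap those of Mars by 68 bases on the opposite strand, and the counting strand is not stated. Per kilobase of all exons, Cebpg (12.5) and Ddit3 (11.8) had overlapping levels. With the longest coding transcript, Ddit3 (20.3 to 26.8) lay above Cebpg (12.1 to 17.1) in all libraries. Both were below Atf4 on either scale. Atf5, a related factor under similar translational control, was lowest at 5.22, 5.22, 4.15 and 2.89 CPM in CTR and 7.74, 4.18, 5.76 and 5.47 CPM in cKO, and per kilobase Atf4 exceeded it 23.8-fold.

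The transporters held both extremes. Slc1a5, which carries glutamine and other neutral amino acids, was the most abundant member, at or above 98.3% of tested genes, and its lowest library (127 CPM per kilobase) exceeded the highest library of any other member. With the length of the longest coding transcript, Slc1a5 averaged 215 and Nupr1 212, with overlapping libraries, so that the first place of Slc1a5 depends on the length used. Slc3a2, the heavy chain that pairs with several light chains to form exchangers, was at 27.5 ± 3.70 CPM per kilobase. Its CPM were 78.9, 117, 91.8 and 91.1 in CTR and 108, 107, 99.3 and 83.5 in cKO, with overlapping ranges. The 2 light chains among the tested members were scarcer, whereas Slc7a6, a light chain that is no member, was at 10.4 CPM per kilobase. Slc7a5, the light chain for large neutral amino acids, had 9, 164, 91 and 52 counts in CTR and 80, 76, 33 and 39 in cKO. Slc7a11, the cystine-glutamate exchanger, had 7, 45, 1 and 1 counts in CTR and 5, 20, 3 and 27 in cKO. Per kilobase Slc7a5 and Slc7a11 averaged 0.54 and 0.028, so that the heavy chain exceeded each in every library. Slc7a3, an arginine and lysine transporter, had no count in any library, below a floor of 3 counts that corresponds to 0.0781 to 0.0972 CPM. The low counts in the deposited table favor odd numbers, so how a listed 0 arose is not known. Slc38a2, Slc6a9, Slc1a4 and Slc7a1 averaged between 0.38 and 21.4 CPM per kilobase.

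Among the enzymes, serine synthesis was represented unevenly. Phgdh, which catalyzes its first step, was at 52.5, 39.0, 36.2 and 40.8 CPM in CTR and 71.3, 34.3, 47.0 and 50.3 CPM in cKO. Psat1, the next enzyme, was at 2.82, 5.25, 4.80 and 2.63 CPM in CTR and 4.15, 2.46, 8.70 and 3.23 CPM in cKO. Per kilobase Phgdh averaged 18.7, Psat1 1.00 and Psph, the last enzyme of the pathway, 5.47. Some 10.4% of the Psph exons overlap Cct6a on the opposite strand, which has 4940 to 6362 counts. Phgdh exceeded Psat1 in every library, and both genotypes overlapped for each. In mitochondrial one-carbon metabolism, Shmt2 averaged 10.5 CPM per kilobase, while Mthfd2 and Mthfd1l averaged 1.98 and 1.07. In proline synthesis Aldh18a1 averaged 14.0 and Pycr1 1.14. Cth, which makes cysteine from cystathionine, had 7 counts in CTR 2, 25 in CTR 3 and none in the 6 other libraries.

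The 11 cytosolic tRNA synthetases among the members were the most even group. Their means lay between 7.44 (Iars) and 25.0 (Nars) CPM per kilobase, all above the median of tested genes. With the longest coding transcript they lay between 8.87 (Iars) and 44.9 (Sars), again all above the median of tested genes on that scale, 6.96. The coefficient of variation over the 8 libraries ranged from 4.48% for Eprs to 17.5% for Iars. Some 14.3% of the Aars exons overlap those of Exosc6 on the same strand.

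The effectors ranged from Nupr1, a small stress-induced chromatin protein, to genes at 0. Nupr1 was at 160, 177, 159 and 155 CPM in CTR and 162, 191, 203 and 200 CPM in cKO. Per kilobase of all exons it averaged 70.0 ± 7.83, which overlapped the range of Atf4. With the longest coding transcript, which is much shorter for Nupr1, its libraries lay between 187 and 245 and those of Atf4 between 69.2 and 104, without overlap. Eif4ebp1, an inhibitor of cap-dependent translation, followed at 47.3 ± 11.9. Sesn2, an mTORC1 inhibitor that senses leucine, was at 29.9, 27.2, 26.4 and 18.04 CPM in CTR and 32.9, 25.7, 23.3 and 29.96 CPM in cKO. Vldlr, a lipoprotein receptor, was at 13.5, 7.87, 10.99 and 6.22 CPM in CTR and 6.83, 12.1, 12.3 and 8.36 CPM in cKO. Ddit4, also an mTORC1 inhibitor, was the most variable tested effector, at 22.2, 67.8, 18.9 and 16.6 CPM in CTR and 16.4, 20.9, 5.64 and 30.8 CPM in cKO. CTR 2 was highest and cKO 3 lowest for Ddit4. Trib3, a pseudokinase that restrains ATF4, had 46 counts in CTR 2 and 0 in the other CTR libraries, and 98, 19, 49 and 33 counts in cKO 1 to 4. Chac1, which degrades glutathione, and Stc2, a secreted glycoprotein, had no count in any library.

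Between genotypes, 40 members had a count in every library and were tested. Their log2 difference, cKO minus CTR, ranged from -1.14 (Mthfd1l) to 0.41 (Atf5) with a median of -0.065, against -0.0055 over all 14598 tested genes. The size of the difference regardless of sign had a median of 0.13 for the members and 0.14 for all tested genes. In all, 25 members were lower and 15 higher in cKO, where 51.1% of all tested genes were lower. Summed over the 45 members, the CTR libraries averaged 2665 ± 57.5 CPM and the cKO libraries 2618 ± 148 CPM (± SD over 4 mice each). With edgeR's quasi-likelihood test and Benjamini-Hochberg adjustment over all tested genes, 0 of the 40 passed the threshold of 0.05 (0.0% of all genes), and the lowest adjusted p among them was 0.894. At an unadjusted p under 0.05 there were 4 members (4.37% of all genes), Slc1a4, Mthfd1l, Mthfd2 and Tars, each lower in cKO (2.15% of all genes in that direction). Here and below, p-values for differences between groups set them against the spread between mice of a group.

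**Figure D2:**
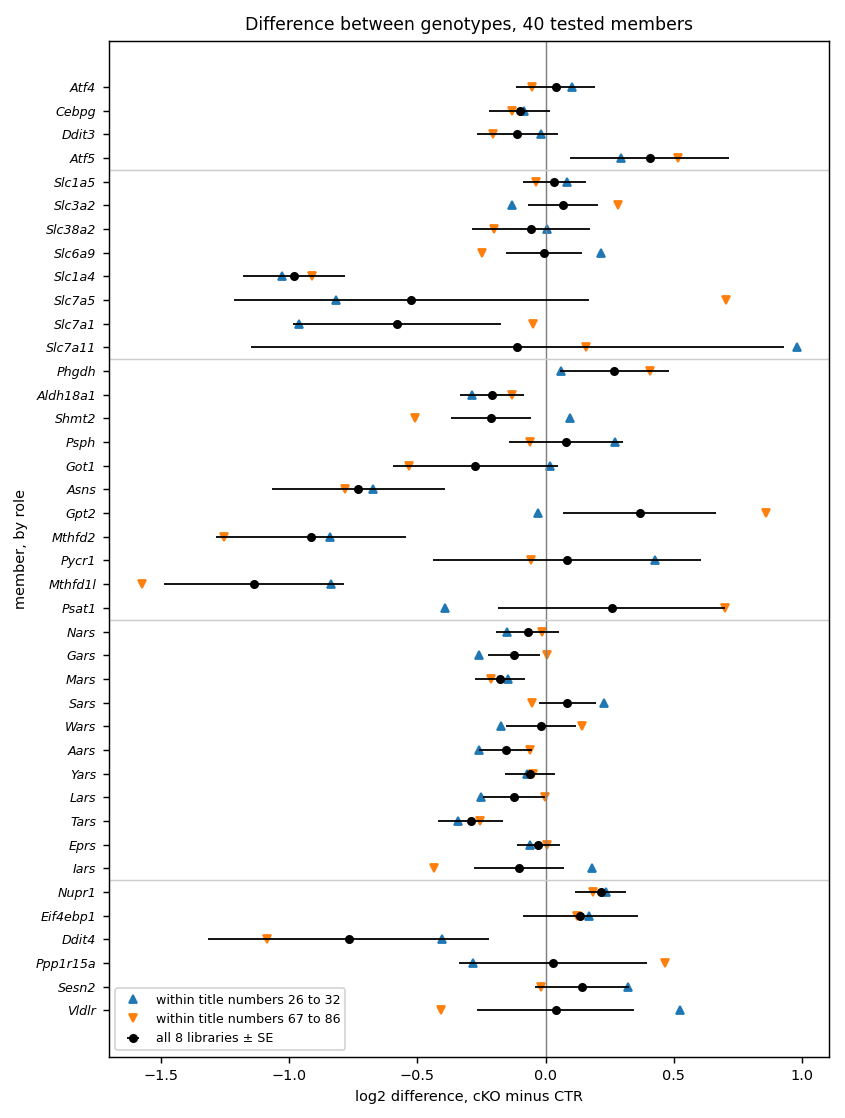
The log2 difference between genotypes (cKO minus CTR) for the 40 tested members by role, over all 8 libraries with its standard error (black) and within the libraries whose titles carry numbers 26 to 32 (blue) or 67 to 86 (orange). Slc1a4, Asns, Mthfd2 and Mthfd1l lie between -1.14 and -0.73, while the synthetases lie between -0.29 and 0.08.

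The 5 members farthest from 0 were Mthfd1l, Slc1a4, Mthfd2, Ddit4 and Asns, each with a negative value. Slc1a4, a carrier of serine, alanine and other small neutral amino acids, was at 21.0, 29.0, 20.9 and 31.1 CPM in CTR and 12.0, 15.2, 10.4 and 14.2 CPM in cKO. Every cKO library lay below every CTR library. The genotypes did not overlap for 3 of the 40 members and, in either direction, for 2.67% of all tested genes. Its log2 difference was -0.98 (SE 0.20), 1.97-fold higher in CTR. Mthfd1l, the mitochondrial formyl-tetrahydrofolate synthetase, was at 6.68, 7.69, 5.14 and 6.67 CPM in CTR and 2.29, 3.90, 1.62 and 4.06 CPM in cKO, again without overlap (log2 difference -1.14, SE 0.35). Mthfd2, which acts just before it in the mitochondrion, was at 9.95, 10.2, 7.65 and 8.34 CPM in CTR and 6.65, 4.04, 1.96 and 6.51 CPM in cKO, the third member without overlap (-0.91, SE 0.37). Asns, asparagine synthetase, was at 6.32, 11.4, 14.6 and 9.33 CPM in CTR and 8.45, 7.23, 3.65 and 5.76 CPM in cKO (-0.73, SE 0.34). The Asns ranges overlapped through CTR 1. For Ddit4 the difference was -0.77 (SE 0.55) and depended on 1 library, since without CTR 2 it was -0.06. For Slc1a4, Mthfd1l, Mthfd2 and Asns, leaving out any single library gave log2 differences from -1.07 to -0.87, -1.32 to -0.93, -1.11 to -0.65 and -0.91 to -0.52.

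**Figure D3:**
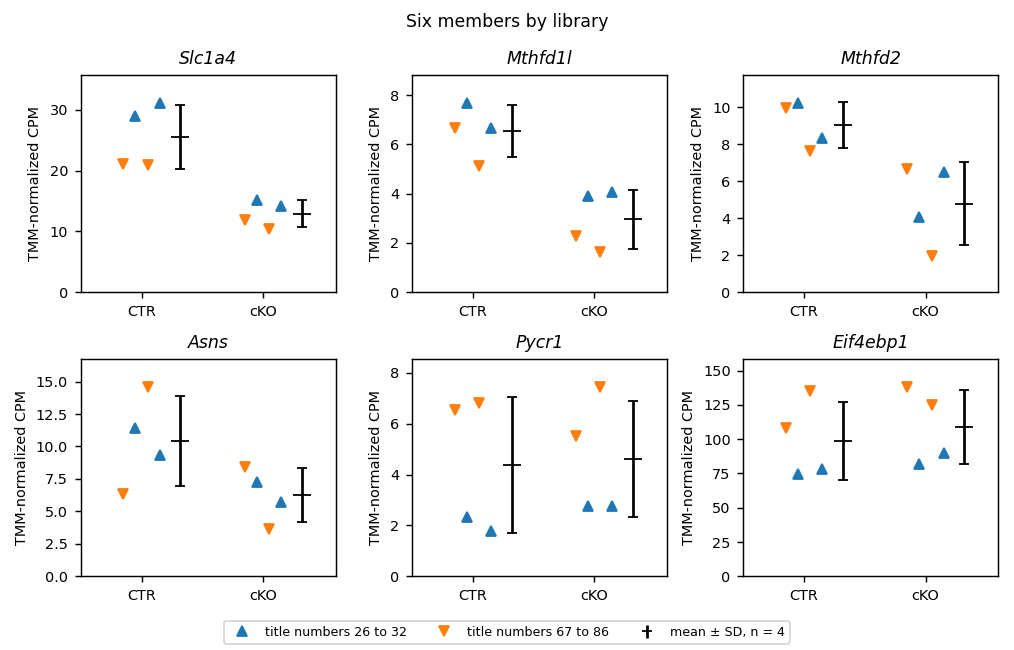
TMM-normalized CPM (linear axes from 0) of 6 members in each library, by genotype and by the range of the title number, with the mean and SD of each genotype. Slc1a4, Mthfd1l and Mthfd2 separate the genotypes, whereas Pycr1 and Eif4ebp1 separate the title number ranges and overlap between genotypes.

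The study's methods name DESeq2's likelihood ratio test with a batch correction, without naming the batches. Without such a term this test called 1 member, Slc1a4 (0.151% of all genes). With the title number range as a term it called 2, Slc1a4 and Mthfd1l (0.335% of all genes). These calls concern the same contrast with which the members were known, and edgeR with the same term called none of the members. Immediate early genes also differed in level between the genotypes in these libraries: 17 of the 19 tested genes of that list were lower in cKO, with a median of -0.37, and their sum was 2301 to 3091 CPM in CTR and 1916 to 2190 CPM in cKO. Egr3 (0.80) and Btg2 (0.10) were the tested exceptions. Among the genes of this list of 24 that were not tested for their zeros, only Egr2 was higher in cKO, at 0.47 CPM on average in CTR and 2.00 CPM in cKO. Of the hematopoietic markers, 10 of 24 were tested, and all 10 had values above 0, from 0.0016 (Cd68), with a median of 0.43. Those not tested for their zeros went both ways. Igkc averaged 21.4 CPM in CTR, mostly from CTR 3, and 1.18 CPM in cKO, whereas Mpo averaged 1.58 and 6.82 CPM. The 3 tested of 4 smooth muscle markers were all lower in cKO, with a median of -1.005. Summed smooth muscle markers ranged from 22.5 to 65.2 CPM in CTR and from 11.4 to 42.1 CPM in cKO, with no marker at 0 throughout. No gene of these 3 lists passed the adjusted threshold of edgeR. Their part in the values of Slc1a4, Mthfd1l, Mthfd2 and Asns was not tested.

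The differences varied between roles and within them. Among the enzymes, 6 of 11 were lower and 5 higher in cKO, with a median log2 difference of -0.21 and a highest value of 0.37 for Gpt2. The low values were those of Mthfd1l, Mthfd2 and Asns, whereas for Phgdh, which feeds serine into the same one-carbon reactions, the difference was 0.27 (SE 0.21), and for Psat1 it was 0.26 (SE 0.44). Of the 8 tested transporters, 6 were lower, with a median of -0.08. Slc1a5 and Slc3a2 were close to 0, at 0.03 (SE 0.12) and 0.07 (SE 0.14). The scarce light chains were poorly determined, with SE of 0.69 for Slc7a5 (-0.52) and 1.04 for Slc7a11 (-0.11), and without CTR 2 these values were 0.14 and 2.01. Of the 11 synthetases 10 were lower in cKO, by small amounts. Their median was -0.10, and the range went from -0.29 for Tars to 0.08 for Sars. Tars, the threonine enzyme, was at 65.8, 64.4, 72.4 and 80.4 CPM in CTR and 49.4, 53.2, 67.8 and 60.7 CPM in cKO, with overlap through cKO 3. Each synthetase was tested separately, and none passed the adjusted threshold. Of the 6 tested effectors, 5 had values above 0 and the median was 0.09, none at an unadjusted p under 0.05. The signs of Vldlr, Ppp1r15a and Eif4ebp1 changed when single libraries were left out, and a difference between roles was not tested. Nupr1 was at 0.21 (SE 0.10), Sesn2 at 0.14 (SE 0.18) and Vldlr at 0.04 (SE 0.31). Trib3, which was not tested for its zeros, had a count in 4 of 4 cKO libraries and in 1 of 4 CTR libraries, and with no filter on low counts edgeR gave a log2 difference of 2.06 (SE 1.61, adjusted p = 0.823). Among the factors, Atf4 was at 0.04 (SE 0.16), Cebpg at -0.10 (SE 0.12), Ddit3 at -0.11 (SE 0.16) and Atf5 at 0.41 (SE 0.31). The 12 tested members whose promoter window held the TGATGNAA core had a median log2 difference of -0.12, and the 22 whose window did not had one of -0.017. A difference between these sets was not tested. With untested members included, the median level was 4.66 CPM per kilobase with the core and 9.11 without.

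The sample titles carry a number in brackets, which falls between 26 and 32 in 2 CTR and 2 cKO libraries and between 67 and 86 in the other 4. The labels do not say what it stands for. This split is crossed with genotype and is not part of the rule for the members, although their counts were known when they were chosen. With genotype as a term, edgeR called 0 of the 40 members at an adjusted p under 0.05 (0.0137% of all genes), the lowest adjusted p being 0.111. At an unadjusted p under 0.05 there were 6 members (11.6% of all genes), and 3 without cKO 3. DESeq2's likelihood ratio test called 3 members, Pycr1, Slc1a4 and Eif4ebp1 (2.44% of all genes). The members split evenly, 20 higher and 20 lower in the 67 to 86 libraries, with a median of 0.0082.

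Of the 40 tested members, 2 had values that did not overlap between the title number ranges. These were Pycr1 and Eif4ebp1, chosen for description after their values were seen. Among all tested genes the share without overlap was 6.86%, so such a separation was no more frequent among the members than among tested genes in general. Pycr1, the last enzyme of proline synthesis, was at 6.55, 6.81, 5.52 and 7.44 CPM in the 67 to 86 libraries (CTR 1, CTR 3, cKO 1 and cKO 3). In the 26 to 32 libraries (CTR 2, CTR 4, cKO 2 and cKO 4) it was at 2.32, 1.80, 2.77 and 2.76 CPM. It was 2.75-fold higher in the former (log2 difference 1.46, SE 0.28), with 1.68 within CTR and 1.196 within cKO, and the adjusted p from edgeR was 0.139. Eif4ebp1 was at 108, 135, 138 and 125 CPM against 74.5, 78.2, 81.8 and 90.2 CPM, 1.56-fold higher (log2 difference 0.64, SE 0.099), with 0.66 within CTR and 0.61 within cKO. Slc1a4 was lower in the 67 to 86 libraries within each genotype, by -0.52 on the log2 scale in CTR and -0.40 in cKO (SE 0.14 for the combined value of -0.46). All 8 tested transporters had a negative value in this contrast, from -2.37 (Slc7a11) to -0.07, but only Slc1a4 and Slc7a11 had an unadjusted p under 0.05. The synthetases lay between -0.18 and 0.12. No member had an unadjusted p under 0.05 for an interaction between genotype and title number range, the lowest being 0.0609 (Shmt2).

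Split by title number range, 20 of the 40 members had the same sign of the genotype difference in both ranges. Slc1a4 (-1.03 within 26 to 32 and -0.91 within 67 to 86), Mthfd1l (-0.84 and -1.57), Mthfd2 (-0.84 and -1.26) and Asns (-0.67 and -0.78) were among these. Psat1 (-0.39 and 0.70), Slc3a2 (-0.13 and 0.28) and Vldlr (0.52 and -0.41) were not. Slc1a4, Mthfd1l, Mthfd2 and Asns were picked for large overall differences, of which both ranges are parts. Their matching signs are therefore no separate evidence. Leaving out each library in turn, 24 of the 40 kept their sign throughout. For neither count is the share of all tested genes known here.

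The deviations of each library from the mean of all 8 show which libraries carried the extremes. In CTR 2, 10 of the 40 tested members were at their highest, among them Slc7a5, Slc7a11, Slc7a1 and Ddit4, where 11.7% of all tested genes were highest in that library. In cKO 3, 11 members were at their lowest, among them Mthfd2, Mthfd1l, Asns, Ddit4 and Slc38a2 (13.2% of all tested genes), while Psat1 and Pycr1 were at their highest there. In cKO 2, only 12 of the 40 members lay above their mean, with a median deviation of -0.14 on the log2 scale.

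**Figure D4:**
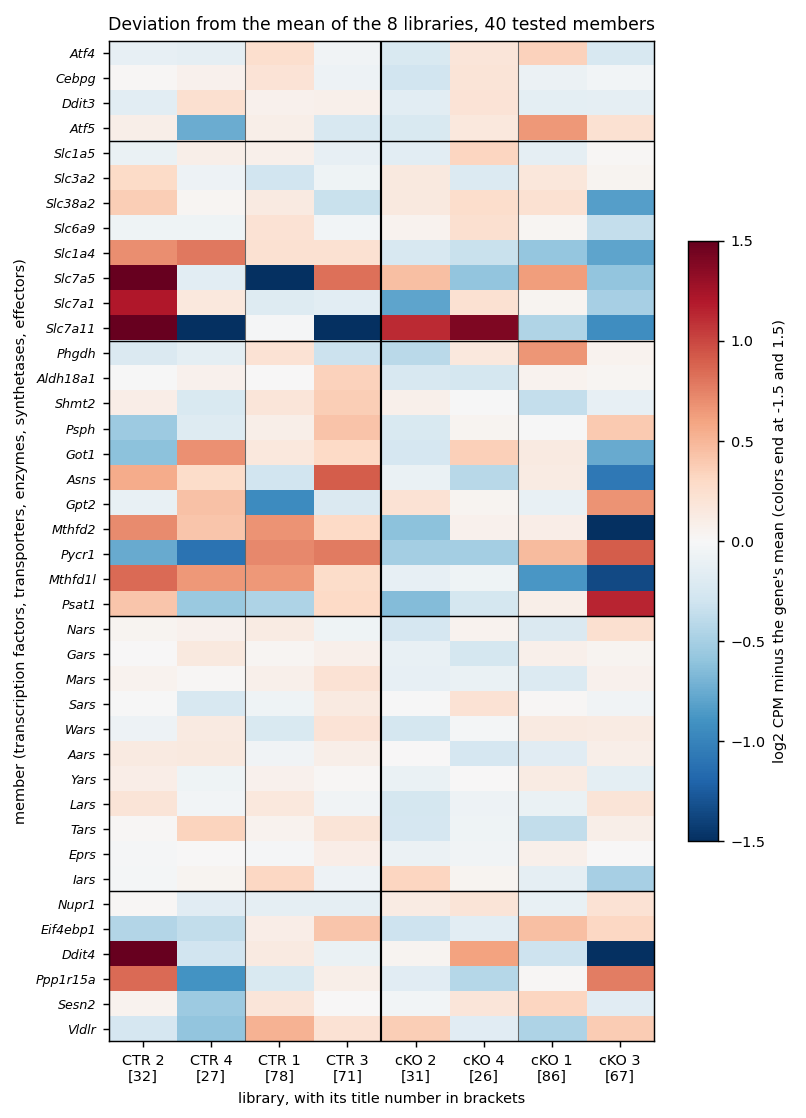
Log2 CPM (with a prior count of 2) minus each gene's mean over the 8 libraries for the 40 tested members, by role, with CTR libraries left and cKO libraries right of the black line and title numbers in brackets. Synthetase rows are pale throughout, the Pycr1 and Eif4ebp1 rows alternate with the title number range, and the Slc1a4 and Mthfd1l rows change color at the genotype line.

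Across the 8 libraries, the Atf4 mRNA was compared with the 39 other tested members by an exact two-sided permutation test. The permutations ran over all 8 libraries, across genotypes and title number ranges. Of the 39 relations 22 were positive and none passed Benjamini-Hochberg adjustment, with a lowest adjusted p of 0.42 by Pearson's r and 0.282 by Spearman's rho in this permutation test. At an unadjusted p under 0.05 for r there were 4 of the 39 members. The share of all tested genes at that level is not known here, so this count has no reference. These were Phgdh (r = 0.82, exact p = 0.0115, rho = 0.67, exact p = 0.0831), Aars (r = -0.77, exact p = 0.0285, rho = -0.57, exact p = 0.151), Sesn2 (r = 0.72, exact p = 0.0345, rho = 0.88, exact p = 0.00724) and Yars (r = 0.73, exact p = 0.0476, rho = 0.83, exact p = 0.0154). Gpt2, with a negative relation, was under 0.05 by rho only (r = -0.67, exact p = 0.0641, rho = -0.81, exact p = 0.0218). CTR 1 and cKO 1 were the 2 libraries farthest from the median of Atf4. Without them, r was 0.49 for Phgdh, -0.76 for Aars, 0.49 for Sesn2 and 0.50 for Yars. Leaving them out also narrows the range of Atf4, so these values cannot show what the relations over all 8 libraries rested on. Asns, a standard readout of ATF4 activity, had r = 0.03 (exact p = 0.946) and rho = 0.14 (exact p = 0.752). Each title number range and each genotype holds 4 libraries, too few to give these relations within it.

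Other genes of the pathway were counted from lists that, like the members, were written with earlier results of these data known. None of these genes passed the adjusted threshold of edgeR between genotypes. Upstream, the 16 eIF2 kinases and eIF2 handling genes had a median log2 difference of -0.018, none at an unadjusted p under 0.05, and the farthest from 0 was Eif2ak2, the kinase PKR (0.33, SE 0.22). Of 18 other ATF4-linked factors and targets, 14 were tested, Fgf21 was at 0 in all libraries, the median was 0.08, and Gclm, a subunit of the enzyme that starts glutathione synthesis, was higher at an unadjusted p under 0.05 (0.57, SE 0.23). Atf3, a stress factor not tested for its zeros and named after its values were seen, had 27, 87, 63 and 43 counts in CTR and 0, 0, 17 and 0 in cKO. It also belongs to the list of immediate early genes, whose tested genes were mostly lower in cKO. Of the 9 other cytosolic synthetases 5 were lower, with a median of -0.07, and Qars had an unadjusted p under 0.05 (-0.29, SE 0.13). The 17 mitochondrial synthetases had a median of -0.08, with none at that level.

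In one-carbon and serine metabolism outside the members, 11 of 14 genes were tested, with a median of 0.07. Mthfd2l, the other mitochondrial methylenetetrahydrofolate dehydrogenase, was at 12.8 CPM on average in CTR and 6.79 CPM in cKO (-0.91, SE 0.31). Its unadjusted p was under 0.05. The 16 tested of 21 other amino acid transporters split evenly, 8 higher and 8 lower, and none reached that level. The 14 genes of the unfolded protein response outside ATF4 had a median of -0.05, with none at that level.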

How the data were processed

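Bulk RNA-seq counts from sorted MSPCs of 4 CTR and 4 cKO mice were analysed. According to the methods, the authors trimmed paired reads, aligned them to GRCm38 with HISAT2 and counted them per gene with HTSeq-count and GENCODE models; the strand setting is not given in the sources used here. The deposited values are raw counts, without normalization, with totals between 31047344 and 38216877. Symbols and exon lengths came from GENCODE M21 on GRCm38, by Ensembl identifier without version (52489 of 52636 genes matched). Promoter sequences were from RefSeq (GRCm38.p6).

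From the counts, edgeR 4.0.16 in R 4.3.3 was run with TMM scaling and glmQLFit and glmQLFTest on the 14598 genes for which no library was at 0, with Benjamini-Hochberg adjustment over all of them and a threshold of 0.05. The genotype fit had no covariate, and the title number fit had genotype as a term. The SE is the size of the log2 difference over the root of its F statistic. Log2 CPM used a prior count of 2. Alternatives were other scalings and filters, DESeq2 1.42.0 (likelihood ratio test), the title number range as a term, the replicate number as a block, each library left out, and, added after seeing the data, another gene length. The fits were tested on simulated data. Genes are described sample by sample by a rule: the transcription factors, preset examples, the 5 largest genotype differences and members under 10 counts in any library, with Tars, Pycr1 and Eif4ebp1 added after their values were seen. The members and lists were chosen with earlier results of these data known.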

Additional observations from a re-analysis of the deposited data

Results flagged for a closer look

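In 81 groups of 4 libraries (a member within a genotype), 3 had a library that stood apart from the others by Dixon's ratio, the gap to the nearest library over the whole range, at its 95% limit. Chance flags about 1 in 20 groups, or 4 of 81. Ddit3 in cKO 4 was at 23.3 CPM against 18.1 to 18.4 CPM in the other cKO libraries (ratio 0.936). Slc38a2, a glutamine and alanine transporter, was at 103 CPM in cKO 3 against 203 to 220 CPM in the other cKO libraries (ratio 0.892). Slc6a9, a glycine transporter, was at 39.6 CPM in CTR 1 against 32.6 to 33.3 CPM in the other CTR libraries (ratio 0.890), and 27.8% of its exons overlap Ccdc24 on the opposite strand.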

How the results depend on the processing

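The number of members called between genotypes was 0 with edgeR under every scaling, filter and left-out library and with the title number range as a term, and it was 1 with DESeq2's likelihood ratio test and 2 when that test had the title number range as a term. Over all genes, these DESeq2 tests called 22 and 47 genes where edgeR called 0. For the title number contrast it was 0 in every edgeR fit and 3 with DESeq2, which called 342 genes in all where edgeR called 2. The number of members at an unadjusted p under 0.05 between genotypes was 4, and 2 to 5 when a library was left out, with 2 without cKO 2. For the title number contrast it was 6, and 3 to 7 when a library was left out, with 3 without cKO 3. The deviations of same-numbered libraries had correlations of 0.131, 0.176, 0.0844 and 0.0573, which were not compared with those of differently numbered libraries. Whether replicate numbers pair the samples was therefore not tested. A fit with the replicate number as a block called 0 members, with 4 at an unadjusted p under 0.05. The members above the median level of tested genes numbered 28, and 27 with the length of the longest coding transcript, which raised Nupr1 from 70.0 to 212 and Eprs from 7.92 to 29.2 CPM per kilobase. For the 17 genes described individually by preset rule and tested, 22 of 305 alternative values changed sign, in 7 genes. Members under 10 counts in a library carry no reliable ratio.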
